A study of Mus musculus with 1 sample.

Results

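The genes of voltage-gated sodium channels, voltage-gated calcium channels and potassium channels, with their auxiliary subunits, were described over the cell classes of the newborn mouse cerebral cortex. They were chosen by symbol (Scn genes ending in a or b, Kcn genes, Cacna1, Cacna2d and Cacnb genes) and then by detection, with earlier results of these data known. Of the 123 genes with such symbols, of 51912 genes listed, the 96 with a UMI in at least 20 barcodes were kept. A UMI is a tag that marks 1 captured RNA molecule. The study compared the cortex of WT mice with that of mice carrying human SERPINA3 by single-cell RNA-seq (sc-RNA Seq), and the WT library is the sample analysed here. It came from the cerebral cortex of Wildtype C57BL/6 mice at P0 (postnatal day 0), with no treatment named, and the number of pooled animals is not given in the sources used here. With 1 library there is no replicate and no test: every interval below is an exact 95% interval for counting error only, and no value says how far other animals would differ.

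Sodium channels carry the rising phase of the action potential, calcium channels couple depolarisation to transmitter release and gene expression, and potassium channels set the resting potential and end each spike. Their pore-forming subunits work with auxiliary subunits that control traffic to the membrane and gating. In the developing cortex progenitors hold few voltage-gated currents, young neurons acquire them while they migrate and settle in their layers, and glia come to be dominated by potassium conductances.

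The library held 11062 barcodes and 90346034 UMIs, with a median of 7196.5 UMIs in a barcode (500 to 92061) and 3.90% of UMIs on mitochondrial genes. In 8447 cells of at least 2000 UMIs outside mitochondrial genes, marker genes that are not channel genes placed 3998 cells in 1 of 16 classes. A further 3 cells met the gates of 2 classes and were left out, and 4446 cells (52.6%) met none. The classes held 1758 layer II/III neurons, 358 layer IV, 50 layer V, 797 layer VI and 39 layer VIb neurons, 163 newborn neurons with Eomes, 123 interneurons with Lhx6 and 150 interneurons with Adarb2, Prox1 or Sp8. They also held 45 dividing progenitors, 190 radial glia or astrocytes, 237 oligodendrocyte lineage cells, 28 Cajal-Retzius cells, 21 mural cells, 16 endothelial cells, 13 microglia and 10 striatal-type cells. The newborn neuron gate asked for Eomes and for no neuronal gene, so that class can also hold progenitors that were not dividing. Levels are given in CPM, the UMIs of a gene per 1000000 UMIs of its class with mitochondrial genes left out. Of 51 entries of check markers that no gate used, 36 were highest in their own class and 40 were first or second. The names of layer IV and layer V rest on fewer of them. In layer IV cells Inhba was highest of all classes, but Rspo1 had 2 UMIs, and Unc5d was at 39.7 CPM, below the 51.6 of all excitatory layer neurons and the 310 of newborn neurons. In layer V cells Ldb2 and Crym were highest of all classes, but Pcp4 was at rank 4 and Parm1 had 0 UMIs. Lpar1, the only check marker of layer VIb, was at rank 3 there, and Tac1 had 0 UMIs in striatal-type cells. Npy was at 141 CPM in Lhx6 interneurons and 326 in excitatory layer neurons, and Lhx2 (layer II/III), Vim (dividing progenitors) and Nr2f2 (Adarb2, Prox1 and Sp8 interneurons) also ranked below 2 in their own classes. Slco1a4 had 0 UMIs in endothelial cells, where Kdr was highest.

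Neurons held more channel RNA than dividing progenitors, radial glia or astrocytes and oligodendrocyte lineage cells. Channel genes took 807 CPM in dividing progenitors, 1205 in radial glia or astrocytes and 1195 in oligodendrocyte lineage cells. The level was 1603 CPM in newborn neurons, 2146 in layer II/III, 2702 in layer IV, 2080 in layer V and 2817 in layer VI. Cajal-Retzius cells, the early transient neurons of the outermost layer, had the highest level at 4502 CPM. The gate of these 28 cells set no limit on markers of other classes, and their median depth was 18408 UMIs. The part of mixed cells in that level was not tested. The levels in interneurons were 2788 CPM with Lhx6 and 1859 with Adarb2, Prox1 or Sp8. At matched depth neurons were again above these classes. When each cell was thinned to 2000 UMIs, the median number of channel genes with a UMI was 1 in dividing progenitors, 2 in radial glia or astrocytes and in oligodendrocyte lineage cells, 3 in newborn neurons, 4 in layer II/III and 5 in layers IV and VI.

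**Figure D1:**
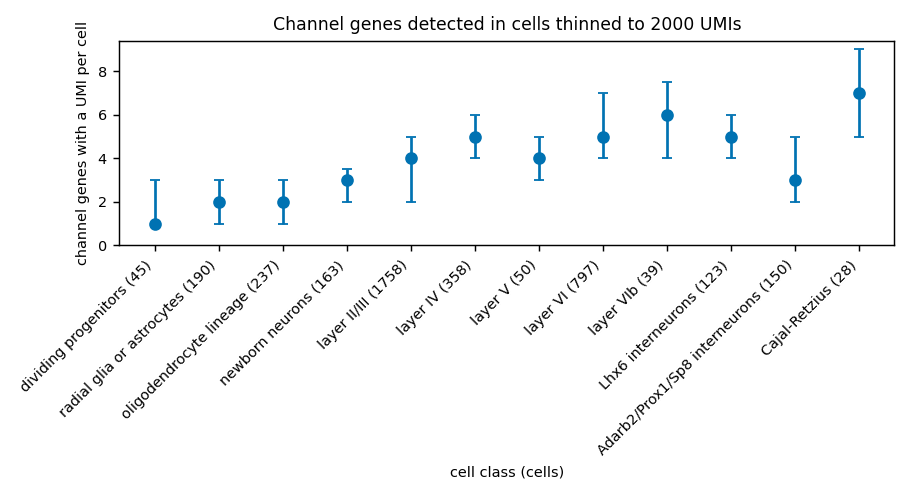
Number of channel genes with a UMI per cell (vertical axis) in 12 cell classes (horizontal axis, cells in parentheses), each cell thinned to 2000 UMIs; points are medians and bars run from the lower to the upper quartile over cells. The median was 1 in dividing progenitors, 3 in newborn neurons, 5 in layer VI and 7 in Cajal-Retzius cells.

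Each channel gene was sparse in single cells at this depth. Of 768 pairs of a channel gene and a class of at least 100 cells, 102 had a UMI in 10% or more of the thinned cells. Levels below are therefore sums over the cells of a class. A captured molecule counts once whatever the length of its transcript, so the values were not scaled by length; levels of different genes also depend on how well each 3′ end was captured and annotated.

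The members were spread over 20 gene families. The numbers found of those listed were 5 of 10 sodium channel alpha subunits, 3 of 4 sodium channel beta subunits, 8 of 9 calcium channel alpha1 subunits, 3 of 4 alpha2delta and 4 of 4 calcium channel beta subunits, 11 of 15 inward rectifiers and 8 of 14 two-pore-domain subunits. The lowest member had a UMI in 24 barcodes and the highest gene outside the minimum, Kcnj16 (named after its value was seen), in 19. Of the 27 genes outside it, 6 had no UMI, which were Kcna7, Kcng4, Kcnk16, Kcnmb1, Scn4a and Scn4b (named after their values were seen). Scn4a is the sodium channel gene of skeletal muscle. The most abundant members over all barcodes were Scn2a with 14935 UMIs, Scn3a with 14224 and Cacna2d1 with 13570.

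**Figure D2:**
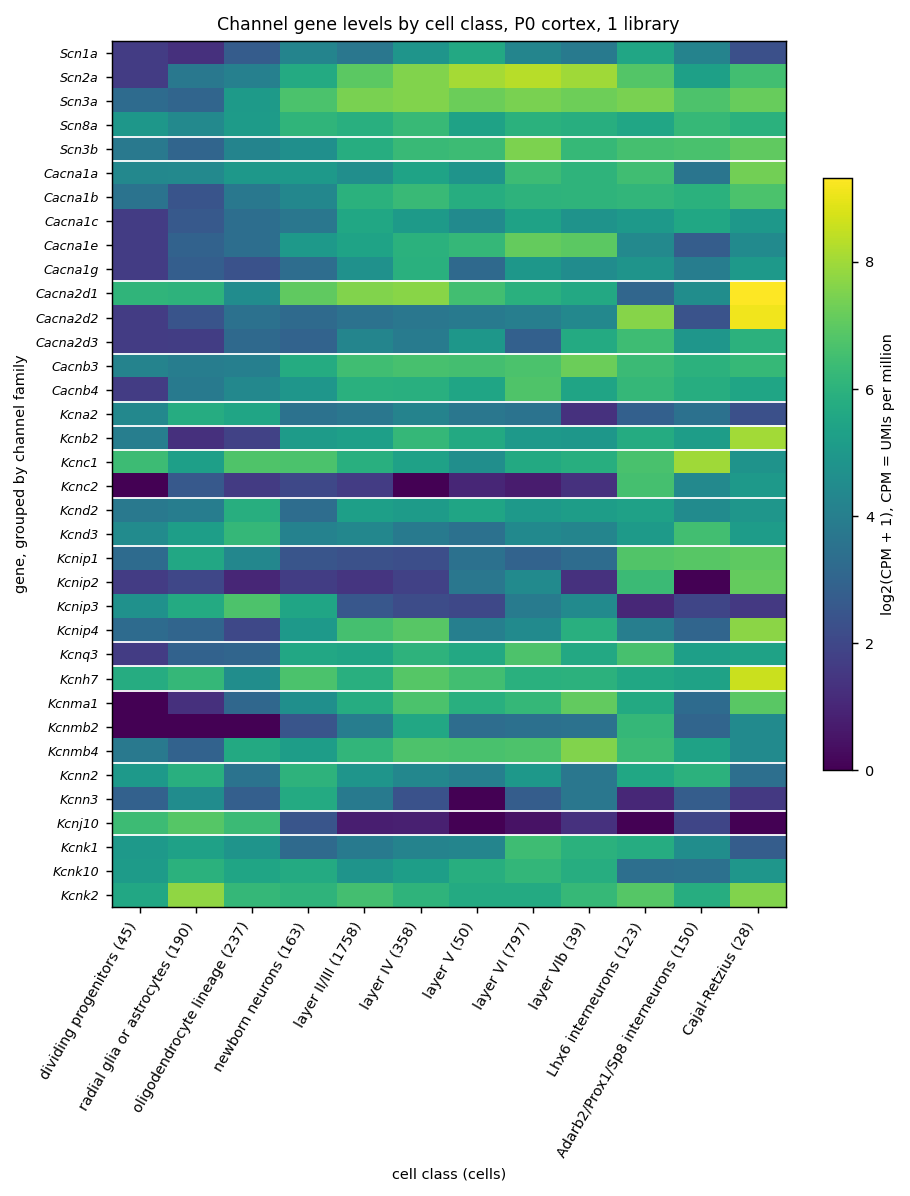
Level of 36 channel genes (rows, grouped by family between white lines) in 12 cell classes (columns, cells in parentheses) as log2(CPM + 1), chosen among genes that reached 40 CPM in a class of at least 100 cells. Sodium and calcium channel genes are bright in the neuron columns and Kcnj10 in the progenitor and glia columns.

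Promoter windows are shown for 3 genes whose levels set classes apart in the results that follow: Kcnj10 of glia, Kcnj8 of mural cells and Scn2a of layer neurons. RefSeq windows of 300 bases (250 before and 50 after a start, build GRCm38.p6) were found for 69 of the 96 members. A GC box (GGGCGG) and a TATA box (TATAAA) were searched on both strands, and their letters are in capitals. The window of Kcnj10 lies at chr1:172340960-172341259 on the plus strand, that of Kcnj8 at chr6:142571565-142571864 on the minus strand, and those of Scn2a at chr2:65620519-65620818 and chr2:65668436-65668735 on the plus strand.
Kcnj10: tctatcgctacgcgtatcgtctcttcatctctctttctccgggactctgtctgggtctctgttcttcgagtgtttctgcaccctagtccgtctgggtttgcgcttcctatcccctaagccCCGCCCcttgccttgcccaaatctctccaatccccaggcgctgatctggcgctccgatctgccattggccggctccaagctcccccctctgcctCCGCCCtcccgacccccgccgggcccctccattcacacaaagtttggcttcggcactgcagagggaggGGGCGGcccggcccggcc
Kcnj8: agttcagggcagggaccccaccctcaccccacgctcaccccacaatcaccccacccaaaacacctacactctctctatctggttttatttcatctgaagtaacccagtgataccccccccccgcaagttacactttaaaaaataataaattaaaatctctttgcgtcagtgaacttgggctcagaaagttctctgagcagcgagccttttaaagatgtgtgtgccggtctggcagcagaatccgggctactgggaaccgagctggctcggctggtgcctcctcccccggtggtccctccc
Scn2a, first start: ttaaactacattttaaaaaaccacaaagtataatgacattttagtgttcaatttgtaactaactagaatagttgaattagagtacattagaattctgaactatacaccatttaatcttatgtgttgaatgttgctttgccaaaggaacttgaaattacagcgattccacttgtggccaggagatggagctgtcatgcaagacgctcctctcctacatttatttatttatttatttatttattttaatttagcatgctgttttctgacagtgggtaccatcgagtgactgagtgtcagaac
Scn2a, second start: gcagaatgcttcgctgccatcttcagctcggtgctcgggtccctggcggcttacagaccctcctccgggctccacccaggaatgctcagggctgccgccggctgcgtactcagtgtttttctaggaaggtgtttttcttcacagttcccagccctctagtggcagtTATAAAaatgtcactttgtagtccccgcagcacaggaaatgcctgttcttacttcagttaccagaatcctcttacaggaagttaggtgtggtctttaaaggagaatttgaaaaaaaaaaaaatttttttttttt

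The Kcnj10 window held 3 GC boxes at a GC content of 63.7%, and the Kcnj8 window neither motif at 53.3%. The Scn2a windows had a GC content of 33.0% and 47.7%, and the second held 1 TATA box. Of the 100 windows of the members, 50 held a GC box and 5 a TATA box, beside 35.7% and 13.6% of the 32851 windows in the table. Some of the 100 windows overlap, being of 1 gene. The median GC content was 60.7% over the member windows and 52.7% over all, and the part of this in the motif shares was not tested. These are matches of letters, not sites of binding, and the library measured no promoter.

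Among sodium channel alpha subunits, Scn2a and Scn3a carried most of the RNA in layers II/III to VI, and their order differed between classes. Scn3a, which encodes the alpha subunit known from embryonic brain, was at 102 CPM in newborn neurons, 174 in layer II/III, 187 in layer IV, 148 in layer V and 176 in layer VI. Scn2a, the alpha subunit of early axons, was at 50.5 CPM in newborn neurons, 125 in layer II/III, 187 in layer IV, 266 in layer V and 321 in layer VI. Scn2a was thus higher with depth from layer II/III to layer VI, while Scn3a stayed within a narrow range. In the 39 cells of layer VIb, Scn2a was at 255 CPM, below layers V and VI. Scn8a, which encodes the alpha subunit of mature nodes and axon initial segments, was between 40.4 and 76.8 CPM in newborn neurons and in the neurons of layers II/III to VI. Scn1a, the alpha subunit gene best known from fast-spiking interneurons and the epilepsy of Dravet syndrome, was at 45.3 CPM in Lhx6 interneurons, 48.5 in layer V and 12.1 in layer II/III.

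As a share of the alpha subunit UMIs of a class, Scn3a took 42.7% (37.2 to 48.4%) in newborn neurons, 46.8% in layer II/III, 38.3% in layer IV, 28.2% in layer V and 30.2% (28.9 to 31.5%) in layer VI. Scn2a took 21.2% (16.8 to 26.1%) in newborn neurons, 33.5% in layer II/III, 38.3% in layer IV, 50.6% in layer V and 55.04% (53.6 to 56.5%) in layer VI. The leading alpha subunit gene was therefore Scn3a in newborn and layer II/III neurons and Scn2a in layers V and VI. In layer IV the counts of both were nearly equal, 965 UMIs of Scn2a and 964 of Scn3a. Scn3a also led in both interneuron classes, with 44.1% in Lhx6 interneurons and 44.3% in Adarb2, Prox1 and Sp8 interneurons. Scn8a, not Scn2a, came next in newborn neurons, at 28.2%. The same held in Adarb2, Prox1 and Sp8 interneurons, with Scn8a at 31.1% and Scn2a at 16.2%. In radial glia or astrocytes the 56 alpha subunit UMIs were mostly of Scn8a (48.2%) and Scn2a (30.4%).

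**Figure D3:**
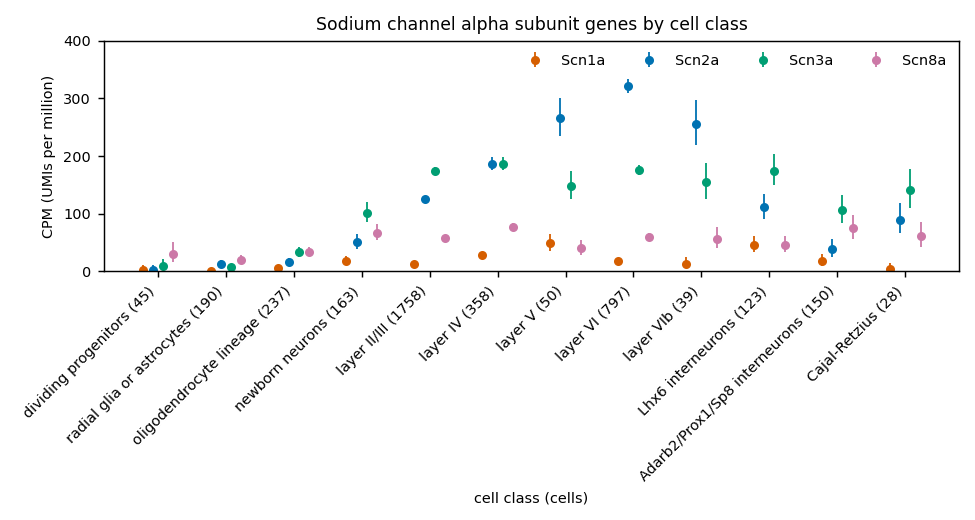
Level of Scn1a, Scn2a, Scn3a and Scn8a in CPM (vertical axis) in 12 cell classes (horizontal axis, cells in parentheses); points are the level of the class and bars the exact 95% counting interval. Scn2a stands at 50.5 in newborn neurons and 321 in layer VI, and Scn3a at 102 and 176.

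The shares of cells with a UMI at matched depth ran the same way. Scn2a had a UMI in 6.13% of thinned newborn neurons (3.0 to 11.0%), 20.4% of layer II/III neurons (18.5 to 22.3%) and 47.8% of layer VI neurons (44.3 to 51.3%). Without thinning they came to 20.9%, 55.6% and 89.6%, in classes whose cells had medians of 6983, 8447.5 and 9433 UMIs. In radial glia or astrocytes it was 3.16% of thinned and 8.42% of unthinned cells at a median of 7167.5 UMIs. The newborn share of Scn2a overlapped that glial share in its interval, so at this depth it was not set apart from it. Summed without thinning, Scn2a had 67 UMIs in the 163 newborn neurons. It had 17 UMIs, or 12.5 CPM, in the 190 radial glia or astrocytes.

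Of the sodium channel beta subunits, cell adhesion proteins that modulate the alpha subunits, Scn3b was highest in layer VI among the layers from II/III to VI. It was at 24.1 CPM in newborn neurons, 55.7 in layer II/III, 79.3 in layer IV and 177 in layer VI.

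Among calcium channel genes, the alpha2delta subunits, which bring the pore to the presynaptic membrane, divided the neuron classes most sharply. Cacna2d1 was at 187 CPM in layer II/III, 201 in layer IV, 90.8 in layer V, 60.3 in layer VI and 7.37 in Lhx6 interneurons. Cacna2d2 ran the other way, with 199 CPM in Lhx6 interneurons, between 10.4 and 14.7 in layers II/III to VI, and 4.29 in Adarb2, Prox1 and Sp8 interneurons. In Cajal-Retzius cells both were high, Cacna2d1 at 641 CPM (575 to 714) and Cacna2d2 at 563 (501 to 631), with UMIs of each in all 28 cells.

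Of the pore-forming calcium channel genes, Cacna1e, which encodes the R-type channel, was at 30.9 CPM in newborn neurons, 41.3 in layer II/III, 61.4 in layer IV, 72.7 in layer V and 139 in layer VI. Cacna1c, the main L-type channel of brain, was at 12.1 CPM in newborn neurons and between 21.2 and 46.2 in layers II/III to VI. Cacna1a, the P/Q-type channel of presynaptic terminals, was highest among the larger classes in Lhx6 interneurons (88.4 CPM) and layer VI (83.8). The cytoplasmic beta subunits Cacnb3 and Cacnb4 were the most abundant of their family in layer VI, at 101 and 107 CPM.

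Among voltage-gated potassium channels, Kcnq3, a subunit of the channels that restrain repeated firing, was at 47.5 CPM in newborn neurons, 42.9 in layer II/III, 64.9 in layer IV and 104 in layer VI. Kcnd2, the A-type channel of dendrites, was at 9.04 CPM in newborn neurons and 37.0 in layer II/III, and at 56.9 in oligodendrocyte lineage cells.

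The KChIP proteins, calcium-binding partners of the Kv4 channels, differed in the classes that held them. Kcnip1 was at 109 CPM in Lhx6 interneurons and 120 in Adarb2, Prox1 and Sp8 interneurons, against 4.02 in layer II/III. Kcnip2 was at 80.0 CPM in Lhx6 interneurons and 21.1 in layer VI. Kcnip3, whose product also binds DNA, was at 104 CPM in oligodendrocyte lineage cells, 51.3 in radial glia or astrocytes and 43.7 in newborn neurons, against 4.75 in layer II/III. Kcnip4 was at 120 CPM in layer IV and 95.5 in layer II/III, against 21.2 in layer VI.

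The ERG-type gene Kcnh7 was at 102 CPM in newborn neurons, 58.3 in layer II/III and 115 in layer IV, and at 72.5 in radial glia or astrocytes. The EAG-type gene Kcnh1 was concentrated in layer IV, at 32.6 CPM against 12.1 in newborn neurons and 1.65 in layer II/III. Of the leak and inward rectifier genes, Kcnk10 was at 71.3 CPM in layer VI and 60.8 in radial glia or astrocytes. Kcnj6, a subunit of the channels that G proteins open, was scarce, between 0 and 4.26 CPM in the 12 classes drawn above.

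Newborn neurons were compared with layer II/III neurons, the upper-layer class with the most cells. The newborn class can also hold progenitors that were not dividing, and their part in the differences was not tested. In newborn neurons the calcium-activated SK channel genes and Kcnip3 were higher. At least 2-fold lower were 4 of 8 calcium channel alpha1 genes, 4 of 7 inward rectifier genes and 2 of 5 sodium channel alpha subunit genes, while Scn8a (67.1 CPM against 57.8) and Scn1a (17.3 against 12.1) were within 2-fold. Those 2 were Scn2a, 2.47-fold lower (1.94 to 3.20), and Scn9a, at 2 UMIs against 53 with an interval that included no difference, as did those of the inward rectifier genes Kcnj4 and Kcnj6. Of 79 members with at least 20 UMIs in both classes together, 6 were at least 2-fold higher in newborn neurons and 27 at least 2-fold lower. Over all genes tested, 12.9% were that much higher and 10.0% that much lower. The median log2 ratio was -0.50 over the members and 0.10 over all genes. All 3 tested SK subunits were on the higher side. Kcnn3 was at 51.2 CPM against 13.3, a 3.86-fold difference (2.89 to 5.09). Kcnn2 was 2.33-fold higher (1.83 to 2.94), or 1.60-fold with cells thinned before summing, and Kcnn1 2.23-fold (1.13 to 4.06). Kcnip3 was 9.195-fold higher (6.43 to 13.1), with a UMI in 9.82% of thinned newborn neurons and 1.37% of thinned layer II/III neurons (28.2% and 4.27% unthinned).

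Among channels active near rest, the acid-sensitive leak channel gene Kcnk3 was 5.19-fold lower (2.20 to 16.1), and the G protein-gated inward rectifier gene Kcnj3 2.97-fold lower (1.54 to 6.54). Thinned before summing, Kcnk3 had 0 UMIs in newborn neurons against 57 and was 1.76-fold lower at the floor. Kcnj2, a classical inward rectifier, rested on 2 UMIs in newborn neurons and was 4.61-fold lower (1.25 to 38.5). With cells thinned before summing it had 0 UMIs there, and its ratio at the floor was 1.62 on the higher side. Kcna1, a low-threshold axonal channel, rested on 3 UMIs and was 4.18-fold lower (1.40 to 20.5). Kcnd2 was 4.09-fold lower (2.32 to 7.96), and its partner Kcnip4 3.02-fold (2.22 to 4.21). Among calcium channels, Cacna1c was 3.83-fold lower (2.34 to 6.74) and Cacna1b, the N-type channel of presynaptic terminals, 3.22-fold (2.17 to 5.003). Kcnmb2, a subunit of BK channels that makes them inactivate, was 3.17-fold lower (1.43 to 8.72). Kcnu1, a relative of the BK channel known from sperm, had 1 UMI against 50, and the interval of its ratio included no difference.

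**Figure D4:**
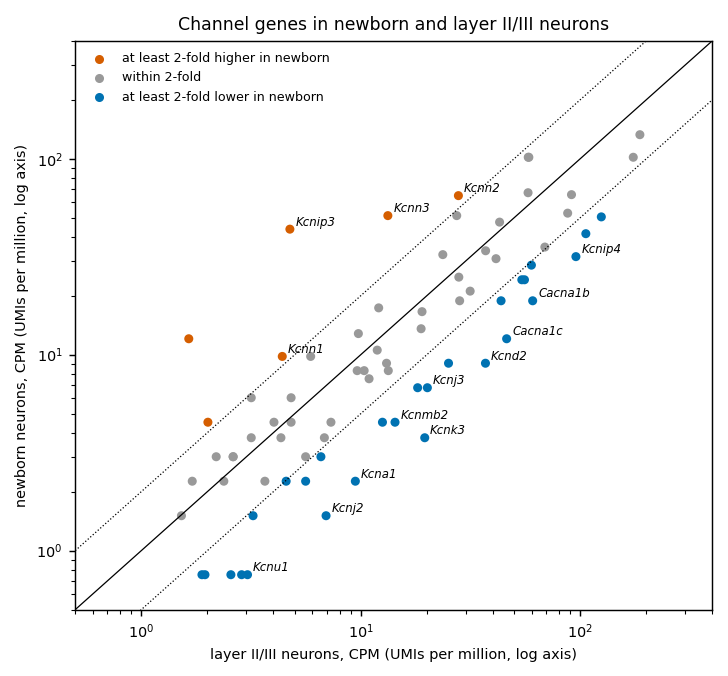
Level in newborn neurons (vertical axis) against layer II/III neurons (horizontal axis), both in CPM on log axes, for the 76 tested members with a UMI in both classes; the solid line marks equal levels and the dotted lines 2-fold. Kcnip3, Kcnn3 and Kcnn2 lie above the upper dotted line, and 27 members lie below the lower one; 3 more tested members had no UMI in newborn neurons and are not drawn.

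Within layer II/III, 1363 young cells with at least 4 UMIs of Igfbpl1, a gene of newly settled neurons, were set against 184 cells with at most 1. Kcnip4, Cacna1g, Cacna1i, Kcnj2 and Kcnj4 were lower in the young cells, and Kcnn3 and Kcnj11 were higher. In cells gated on thinned counts Kcnn3, Kcnj11 and Cacna1i were not past 2-fold. These cells are also in the layer II/III class of the comparison with newborn neurons, so the comparisons share cells. Of 78 members tested, 6 were at least 2-fold higher in the young cells and 15 at least 2-fold lower, against 5.23% and 4.47% of all genes. Over the members the median log2 ratio was -0.33, and 0.03 over all genes. The young cells had a median of 8090 UMIs and the others 10566.5, and the part of this depth gap in the result was not tested. Kcnip4 was at 73.3 CPM in the young cells and 196 in the others, 2.67-fold lower (2.36 to 3.02). Of the 3 genes of T-type calcium channels, which open at low voltage, Cacna1g was 2.56-fold lower (1.99 to 3.27) and Cacna1i 2.98-fold (2.09 to 4.20), while Cacna1h, named after its value was seen, was at 32.4 CPM in the young cells and 25.7 in the others. The silent Kv subunit gene Kcnv1 was 4.999-fold lower (2.97 to 8.32). Gated on thinned counts the young cells had 0 UMIs of Cacna1i and of Kcnv1, against 6 and 5, and at the floor these were 1.42-fold and 1.19-fold lower. Of the 7 inward rectifier genes tested 3 were lower and 1 higher, Kcnj4 and Kcnj2 being 3.70-fold (2.20 to 6.12) and 3.39-fold (2.10 to 5.35) lower.

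Among the SK genes, Kcnn1 was 2.33-fold lower in the young cells (1.23 to 4.20); gated on thinned cells they had 0 UMIs of it and its ratio at the floor was 2.11. Higher in the young cells were Kcnn3, 3.01-fold (1.60 to 6.37), and Kcnj11, the pore of ATP-sensitive potassium channels, 3.46-fold (1.55 to 9.60). Gated on thinned counts, Kcnn3 was at 1.53-fold on 12 and 11 UMIs and Kcnj11 at 1.12-fold on 4 and 5. Scn3a and Scn2a were within 2-fold. Scn3a was at 175 CPM in the young cells and 168 in the others, and Scn2a at 111 and 170. The share of Scn3a among alpha subunit UMIs was 49.0% (47.6 to 50.5%) in the young cells and 39.1% (35.8 to 42.6%) in the others. In the others Scn2a had 323 UMIs and Scn3a 320, so Scn3a did not lead there. Kcnh2 and Scn9a crossed 2-fold by 2.14-fold higher and 2.07-fold lower with intervals that included no difference, and Kcnh2 turned to 0.47 on 1 and 3 UMIs when cells were gated on thinned counts. Gating on thinned cells left 67 young cells and 61 others, and then 3 members were at least 2-fold higher and 3 lower. Here and below, counts under alternatives are given without the share over all genes at that setting. They therefore do not say how the members stood against all genes there.

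Radial glia or astrocytes were compared with the 3002 excitatory layer neurons. All tested sodium channel alpha subunit (5), BK family (4) and calcium channel alpha1 (8) genes were at least 2-fold lower in the glia. The BK family was counted with its relative Kcnu1. Kcnj10 and Kcnk2 were higher in the glia. Of 84 members tested, 10 were at least 2-fold higher in the glia and 55 at least 2-fold lower, against 21.6% and 19.3% of all genes. There were 6 higher of 60 tested with gating on thinned cells, and 30 lower of 67 with thinning before summing. On the log2 scale the median ratio was -1.62 over the members, with the 17 tested members that had no UMI in the glia set at a floor of 3 UMIs, and 0.06 over all genes. Kcnj10, the inward rectifier by which glia clear potassium, was at 115 CPM in the glia and 0.638 in the neurons, 180-fold higher (113 to 303). It had a UMI in 21.1% of thinned glia (15.5 to 27.5%) and 0.133% of thinned neurons, or 56.8% and 0.666% unthinned, where the cells had medians of 7167.5 and 9358 UMIs. Kcnk2, a mechanically gated leak channel, was the highest member of the glia at 220 CPM, 2.94-fold above the neurons (2.59 to 3.31), which held it too, at 74.9.

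Of the other genes higher in the glia, Kcna2, an axonal Kv1 channel, was 4.44-fold higher (3.41 to 5.70), Kcnip3 7.14-fold (5.38 to 9.38) and Kcnip1 9.42-fold (6.93 to 12.7). The SK genes Kcnn2 and Kcnn3 were 2.22-fold (1.75 to 2.80) and 2.35-fold (1.56 to 3.43) higher. Kcnc2 rested on 7 UMIs and Kcnj13 on 13 UMIs in the glia, at 3.74-fold (1.42 to 8.38) and 3.32-fold (1.70 to 5.96). Kcnd3 was 2.02-fold higher (1.48 to 2.70), at the edge of the 2-fold limit. Of these, 5 came within 2-fold under an alternative, with lowest ratios of 1.20 for Kcnn3 and 1.86 for Kcnj13 with cells thinned before summing, and 1.59 for Kcnd3, 1.60 for Kcnn2 and 1.85 for Kcnc2 with gating on thinned cells.

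On the lower side, Scn3a was 24.0-fold lower (13.0 to 49.99) and Scn2a 15.5-fold (9.67 to 26.6). Kcnma1, the pore of the BK channel, had 2 UMIs in the glia against 2154 in the neurons and was 46.9-fold lower (13.0 to 388). Its subunit gene Kcnmb4 was 13.3-fold lower (6.99 to 29.1). Kcnb2 was 28.6-fold lower (7.91 to 237) and Cacna1b 14.7-fold (6.73 to 40.02). Kcnq5 and Kcnv1 each had 1 UMI in the glia, at 20.2-fold (3.60 to 798) and 13.5-fold (2.41 to 535) lower. Thinned before summing, both had 0 UMIs in the glia and were 1.43-fold and 1.33-fold lower at the floor. The part of free RNA in these few glial UMIs was not tested.

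Oligodendrocyte lineage cells were compared with the radial glia or astrocytes. They shared Kcnj10, at 81.0 CPM against 115, and other members differed in both directions, at totals of 1195 and 1205 CPM of channel genes. The oligodendrocyte lineage gate set no limit on markers of radial glia or astrocytes or of division, and the part of this was not tested. Of 34 members tested, 10 were at least 2-fold higher in the oligodendrocyte lineage and 6 at least 2-fold lower, against 11.4% and 9.49% of all genes. Over the members the median log2 ratio was 0.52, and 0.06 over all genes. Kcnmb4 was 7.54-fold higher (3.81 to 17.0), Scn3a 4.55-fold (2.32 to 9.92) and Kcnd2 3.88-fold (2.40 to 6.60). Kcnc1, a fast delayed rectifier, was at 108 CPM against 37.4, 2.88-fold higher (2.11 to 3.99), and Kcnip3 at 104 against 51.3, 2.03-fold (1.54 to 2.70). Kcnn2 was 5.45-fold lower (3.33 to 9.28), Kcnh7 3.22-fold (2.23 to 4.70), Kcnk2 2.98-fold (2.43 to 3.66), Cacna2d1 2.89-fold (1.99 to 4.27) and Kcnip1 2.47-fold (1.62 to 3.81). Gating on thinned cells gave 17 higher and 5 lower of 37 members tested, with Cacna2d1 at 1.95-fold and Kcnip1 at 1.60-fold lower, and thinning before summing put Kcnip3 at 1.85-fold higher.

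Interneurons, the 273 cells of the Lhx6 and the Adarb2, Prox1 and Sp8 classes together, were compared with excitatory layer neurons. They held more RNA of Kcnc2 and Kcnip1, and less of Cacna2d1 and Kcnip4, and the higher pooled Cacna2d2, Kcnip2, Kcns3 and Kcnc4 came from Lhx6 interneurons. Past 2-fold, Kcnc1 was higher in the Adarb2, Prox1 and Sp8 class only and Cacna2d3 in Lhx6 interneurons only. Of 86 members tested, 17 were at least 2-fold higher in interneurons and 21 at least 2-fold lower, against 9.8% and 8.3% of all genes. With gating on thinned cells 9 of 58 tested were higher. The median log2 ratio was -0.09 over the members and 0.06 over all genes. Of the 4 Kv3 genes, whose channels allow fast spiking, 3 were higher. Kcnc2 was at 62.5 CPM against 1.37, 45.5-fold higher (31.6 to 66.6), and Kcnc1 at 165 against 51.5, 3.21-fold (2.81 to 3.65). The Adarb2, Prox1 and Sp8 class was at 255 CPM of Kcnc1, while Lhx6 interneurons were within 2-fold of excitatory neurons. Kcnc4 was 4.96-fold higher on 12 UMIs (2.39 to 9.51), 11 of them in Lhx6 interneurons (11.6 CPM) and 1 in the other class (1.43, against 1.47 in excitatory neurons), and at 1.69-fold with cells thinned before summing. Kcnip1 was 22.9-fold higher (18.4 to 28.5), with a UMI in 20.3% and 24.0% of thinned Lhx6 and Adarb2, Prox1 and Sp8 interneurons and in 0.766% of thinned excitatory neurons. Without thinning the Kcnip1 shares came to 49.6%, 34.0% and 4.40%, where the cells had medians of 6620, 4521.5 and 9358 UMIs.

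Cacna2d2 was 9.68-fold higher in interneurons (8.09 to 11.5) and Cacna2d3 3.97-fold (3.17 to 4.93), while Cacna2d1 was 10.8-fold lower (7.18 to 17.0). Cacna2d3 was at 85.2 CPM in Lhx6 interneurons and 28.6 in the other class, which was within 2-fold of excitatory neurons. Cacna2d2 and Kcnip2 were at 199 and 80.0 CPM in Lhx6 interneurons, whereas the Adarb2, Prox1 and Sp8 class was at 4.29 and 0 CPM against 12.03 and 7.18 in excitatory neurons. The KChIP family also had members on opposite sides, with Kcnip2 6.42-fold higher (4.88 to 8.36) and Kcnip4 6.69-fold lower (4.27 to 11.1). Cacnb2, a calcium channel beta subunit, was 6.19-fold higher (3.89 to 9.57). It was at 28.6 CPM in the Adarb2, Prox1 and Sp8 class and 8.42 in Lhx6 interneurons. The silent subunit gene Kcns3 was 6.05-fold higher on 14 UMIs (3.06 to 11.2). All 14 Kcns3 UMIs were in Lhx6 interneurons, and gated on thinned counts the ratio was 1.55 on 1 UMI. Kcnh8 was 3.48-fold higher on 13 UMIs (1.77 to 6.34), 10 of them in Adarb2, Prox1 and Sp8 interneurons (14.3 CPM), while the 3 in Lhx6 interneurons came to 3.16 CPM beside 2.27 in excitatory neurons. Of the 9 inward rectifiers tested, 4 were lower and 0 higher by the 2-fold limit. Kcnj4 and Kcnj2 had 1 UMI each in interneurons and were 12.9-fold (2.30 to 513) and 9.74-fold (1.73 to 387) lower. Gated on thinned cells, interneurons had 0 UMIs of Kcnj4 against 20, 1.08-fold lower at the floor. Kcnj2 had 0 UMIs in interneurons under 2 alternatives. Its ratio at the floor was 1.32 with cells thinned before summing and 1.55 with gating on thinned cells, which gives no direction. Kcna1 had 0 UMIs against 398 in excitatory neurons, at least 6.98-fold lower with the interneurons set at 3 UMIs over the class. Cacna1e was 5.21-fold lower (3.46 to 8.23) and Cacna1i 5.78-fold (2.24 to 21.3), or 1.94-fold with gating on thinned cells.

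Lhx6 interneurons, most of which come from the medial ganglionic eminence, were set against Adarb2, Prox1 and Sp8 interneurons, which include those of the caudal eminence. Of 42 members tested, 21 were at least 2-fold higher in Lhx6 interneurons and 4 at least 2-fold lower, against 9.88% and 8.38% of all genes. When gated on thinned counts, 22 and 85 cells were left, with 7 members higher and 1 lower of 22 tested. On the log2 scale the median ratio was 0.98 over the members and -0.02 over all genes. The median depths were 6620 and 4521.5 UMIs. Cacna2d2 had 189 UMIs in Lhx6 interneurons and 3 in the other class, 46.3-fold higher (15.6 to 227), and a UMI in 27.6% and 0.667% of thinned cells (58.5% and 2% unthinned). Kcnip2 had 76 UMIs and 0, at least 18.6-fold higher with the other class set at 3 UMIs. Kcnmb2 was 10.1-fold higher (4.15 to 32.2), Cacna1a 7.72-fold (3.74 to 18.5), Kcnma1 5.76-fold (2.46 to 16.5) and Kcnc2 4.68-fold (2.65 to 8.90). Cacna2d3 was 2.98-fold higher (1.81 to 5.13), Scn2a 2.89-fold (1.88 to 4.58) and Scn1a 2.64-fold (1.37 to 5.49). Gating on thinned cells put Kcnma1 at 1.79-fold and Scn2a at 1.29-fold, and raising the gate minimums put Scn1a at 1.47-fold.

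The Adarb2, Prox1 and Sp8 class was higher for 2 potassium channel genes with at least 50 UMIs. Kcnc1 was its highest member, at 255 CPM against 98.9 in Lhx6 interneurons, 2.57-fold (1.99 to 3.34), and Kcnd3, an A-type channel, was at 88.7 against 32.6, 2.72-fold (1.74 to 4.33). Kcnc2, also of the Kv3 family, was at 20.04 CPM in this class and 93.7 in Lhx6 interneurons. Raising every gate minimum left 49 Lhx6 interneurons and 95 of the other class, with 11 members at least 2-fold higher and 4 lower, and gating on thinned cells put Kcnd3 at 1.97-fold.

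**Figure D5:**
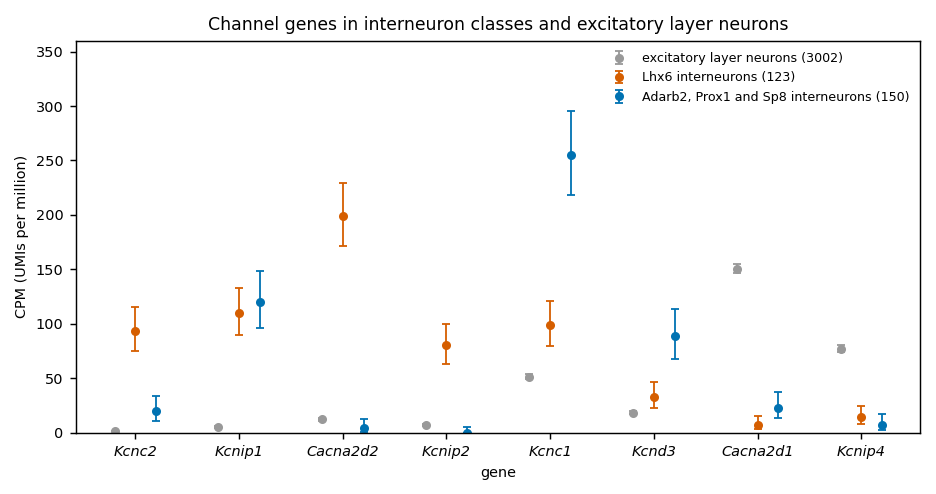
Level of 8 channel genes (horizontal axis) in CPM (vertical axis) in excitatory layer neurons, Lhx6 interneurons and Adarb2, Prox1 and Sp8 interneurons (cells in parentheses); bars are exact 95% counting intervals. Cacna2d2 stands at 199 and Kcnip2 at 80.0 in Lhx6 interneurons, Kcnc1 at 255 in the other interneuron class, and Kcnip1 is above 100 in both interneuron classes.

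The upper layers (II/III and IV, 2116 cells) were compared with the deep layers (V and VI, 847 cells). Kcnj2, Kcnip4, Cacna2d1 and 3 genes of the EAG family were higher in the upper layers, and Kcnip2, Kcna6, Kcnk1 and Scn2a in the deep layers. Of 82 members tested, 14 were at least 2-fold higher in the upper layers and 18 at least 2-fold lower, against 6.78% and 8.52% of all genes. The median log2 ratio was -0.01 over the members and -0.04 over all genes. Kcnj2 was at 8.25 CPM against 0.550, 14.99-fold higher (6.31 to 46.7), and Kcnj6 3.79-fold (1.63 to 10.8). Kcnip4 was at 101 against 20.6, 4.93-fold higher (4.24 to 5.75), and Cacna2d1 at 190 against 63.6, 2.99-fold (2.74 to 3.27). Kcnh8 rested on 2 UMIs in the deep layers, at 14.1-fold higher (3.76 to 119), and Kcnh5 was 3.37-fold higher (1.96 to 6.21). Thinned before summing, Kcnh8 had 13 UMIs against 0 and was 1.73-fold higher at the floor. Kcnh1 was 5.87-fold higher (3.41 to 10.9), with 32.6 CPM in layer IV, 1.65 in layer II/III and 1.54 in the deep layers, so the higher level was that of layer IV. Cacna1i, Kcnmb2 and Kcnf1 were 2.47-fold (1.88 to 3.28), 2.28-fold (1.81 to 2.89) and 3.54-fold (2.22 to 5.94) higher, but when cells were gated on thinned counts Cacna1i was at a ratio of 0.92 on 10 and 14 UMIs, Kcnmb2 at 1.64 and Kcnf1 at 1.28 on 7 UMIs each. Cacna1i and Kcnmb2 were at 31.6 and 47.7 CPM in layer IV, 12.6 and 14.3 in layer II/III and 6.93 and 9.796 in the deep layers.

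In the deep layers, Kcnip2 was 10.6-fold higher (7.52 to 15.3), Kcna6, a Kv1 channel, 8.74-fold (6.81 to 11.3) and Kcnk1, a weakly conducting leak channel, 5.48-fold (4.79 to 6.29). Their levels there were 20.1, 32.8 and 78.3 CPM. Most deep-layer cells were of layer VI, and for several of these genes the higher level was that of layer VI and not of layer V. Kcnk1 was at 85.6 CPM in layer VI, 18.2 in layer V and 14.3 in the upper layers. Kcnab1, a cytoplasmic partner of Kv1 channels, was 3.37-fold higher (2.81 to 4.04) and Kcna4, a Kv1 channel that inactivates, 3.14-fold (2.19 to 4.52). Cacna1e was 2.85-fold higher (2.62 to 3.11) and Cacna1a 2.79-fold (2.49 to 3.11). The silent subunit genes Kcng1 and Kcnv1 were 3.49-fold (2.53 to 4.85) and 2.72-fold (2.15 to 3.45) higher, and Kcnip3 2.84-fold (2.15 to 3.77). Layer V was at 7.07 CPM of Kcnab1, 2.02 of Kcng1, 3.03 of Kcnip3 and 27.3 of Cacna1a, none above the upper layers at 9.64, 3.06, 4.45 and 27.9. Of the sodium channel genes, Scn2a was 2.26-fold higher in the deep layers and Scn3b 2.72-fold. Gating on thinned cells left 170 upper-layer and 180 deep-layer cells, with 4 members at least 2-fold higher in the upper layers and 17 in the deep layers.

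Layer V (50 cells, median 19216 UMIs) was set against layer VI (797 cells, median 9433). Of 70 members tested, 5 were at least 2-fold higher in layer V and 22 at least 2-fold lower, against 3.84% and 13.9% of all genes. The median log2 ratio was -0.48 over the members and -0.19 over all genes. Higher in layer V were Cacna2d3, 4.65-fold (2.84 to 7.47), the sodium-activated channel gene Kcnt2, 4.54-fold (2.49 to 8.05), Kcnq5, 3.29-fold (2.18 to 4.86), and the alpha subunit genes Scn9a, 3.03-fold (1.79 to 4.96), and Scn1a, 2.67-fold (1.88 to 3.72). Thinned before summing, Cacna2d3 was at 1.33-fold on 1 UMI in layer V and Scn1a at 1.49-fold on 3.

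On the lower side, Kcna1 had 1 UMI in layer V and 169 in layer VI, 20.7-fold lower (3.66 to 822). Thinned before summing, Kcna1 and Kcng1 had 0 UMIs in layer V and their ratios at the floor were 1.23 and 2.17, and Cacna1d had 4 UMIs and a ratio of 1.01. Kcnk3 and Kcnip3, given next, were then 1.19-fold and 1.38-fold lower on 3 and 1 UMIs in layer V, and gating on thinned cells put Cacna1g at 1.20-fold lower. Leaving out the deepest cells left 19 of 50 layer V cells. With UMIs in both classes, Cacna1a was then 1.89-fold, Kcnip3 1.60-fold and Cacna1g 1.32-fold lower. Kcna1 then had 0 UMIs in layer V and was 1.65-fold lower at the floor. The leak channel genes Kcnk3 and Kcnk1 were 4.98-fold (2.39 to 12.5) and 4.71-fold (2.96 to 7.998) lower, and Kcnab1 5.04-fold (2.41 to 12.6). Of the calcium channel pore genes, Cacna1d was 4.12-fold lower (2.14 to 9.10), Cacna1g 3.70-fold (1.85 to 8.67) and Cacna1a 3.07-fold (2.09 to 4.70). Kcng1 and Kcnip3 rested on 2 and 3 UMIs in layer V, 5.81-fold (1.57 to 48.7) and 4.57-fold (1.52 to 22.5) lower. Thinning each cell before summing left 1 member at least 2-fold higher in layer V and 10 lower, of 46 tested.

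Some small classes were led by other members. In 21 mural cells, the contractile cells around small vessels, Kcnj8, the vascular ATP-sensitive potassium channel pore, had 206 UMIs, 1564 CPM (1358 to 1793). It had a UMI in 85.7% of thinned mural cells (63.7 to 97.0%), and the excitatory layers held 5 Kcnj8 UMIs in all, 2 in layer IV and 3 in layer VI. Kcnj8 made up most of the 268 channel UMIs of that class. In 16 endothelial cells Kcna5 and Cacna1e had 26 UMIs each, over 12 and 13 cells, and the channel genes took 500 CPM in all. Cacna1e was not particular to them, at 139 CPM in layer VI. In 13 microglia the members had 32 UMIs together.

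Cajal-Retzius cells were led by Cacna2d1 and Cacna2d2, then by Kcnh7 at 381 CPM (330 to 437), Kcnb2 at 263 and Kcnip4 at 207. Kcnh7 had a UMI in all 28 cells and Kcnq3 in 10, with 38.1% of its 21 UMIs in 1 cell. In the 39 layer VIb cells, remnants of the subplate, Kcnab1 was at 186 CPM (154 to 221), beside 35.6 in layer VI, and Kcnmb4 at 189 beside 105. Kcnab1 had a UMI in 43.6% of thinned layer VIb cells (27.8 to 60.4%). In the 10 striatal-type cells the members had 142 UMIs together, 11 of them of Scn3a.

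A list of 25 genes for channel partners and for channels outside the symbol rule was counted in the same way. It held HCN and NALCN channels, neuronal TARP subunits, intracellular FGFs, ankyrins, the Kv4 partners Dpp6 and Dpp10, and Cntnap2. Of the 25 tested, 3 were at least 2-fold higher in newborn than in layer II/III neurons and 10 at least 2-fold lower, beside 12.9% and 10.0% of all genes. Lower were Cacng2, at 23.4 CPM against 98.2, and Ank2, an axonal scaffold, at 194 against 487. Cntnap2, a partner of axonal Kv1 channels, was higher in newborn neurons, at 45.2 against 4.39. In the glia 14 of 25 partner genes were lower than in excitatory neurons and 2 higher, beside 19.3% and 21.6% of all genes, with Ank3, the scaffold of the axon initial segment, at 38.1 against 391. Cntnap2 was on the other side, at 146 against 10.3. In interneurons 7 of 25 were higher and 2 lower than in excitatory neurons, beside 9.8% and 8.3%, among them Dpp6 at 74.6 against 28.0, Dpp10 at 65.5 against 21.1 and Fgf12 at 126 against 28.7. Between Lhx6 and Adarb2, Prox1 and Sp8 interneurons 4 of 19 were higher and 2 lower, beside 9.88% and 8.38%, with Dpp10 at 102 against 15.7 and Hcn4 at 6.31 against 28.6. In the remaining comparisons, 1 was higher and 2 lower of 24 in the young cells of layer II/III (5.23% and 4.47% of all genes), 1 and 6 of 25 in the upper layers (6.78% and 8.52%), 0 and 1 of 23 in layer V (3.84% and 13.9%), and 5 and 3 of 16 in the oligodendrocyte lineage (11.4% and 9.49%). Counts of 1 to 3 genes in a list this short are no result about the partners.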

How the data were processed

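Dissociated cells of P0 cerebral cortex were captured in droplets and their RNA was read from the 3′ end. The authors deposited raw UMI counts per gene and barcode for 1 WT library. Cell Ranger was run by the sequencing company, and the submitters' processing notes also name STAR, Seurat and the build mm9; the gene annotation and the rule that called cells are not given in the sources used here. The knock-in sample was not analysed here. The deposited table of count totals per cell equalled the column sums in all 11062 barcodes, and 0 barcodes were repeated.

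Cells with at least 2000 UMIs outside the 37 mitochondrial genes (8447; 2615 fell below) were placed in classes by UMIs of marker genes, with no channel gene among them. Cells meeting 2 gates were left out. No doublet caller was run. Most gates set limits on markers of other classes, but the oligodendrocyte lineage gate set none on glial markers or markers of division. The Cajal-Retzius gate set no such limit. Levels are summed UMIs per 1000000 (CPM) without mitochondrial genes. Classes were compared by the ratio of their levels with an exact conditional binomial 95% interval, levels with exact Poisson and shares with exact binomial (Clopper-Pearson) intervals; all cover counting error only. A gene was tested with 20 UMIs in both classes together and called by a size rule of 2-fold. A class at 0 UMIs was set at 3 UMIs over the class. For shares, each cell was thinned once to 2000 UMIs (seed 1). With 1 library no p-value was computed.

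Named were, in each comparison, members with at least 50 UMIs past 2-fold (up to 10 in each direction), the 5 highest members of each class, and 20 channel genes in every class; others are marked. Some of these genes are not reported here. The members and lists were chosen with earlier results of these data known. Alternatives changed the filter, thinning, gates, total, depth minimum, deepest cells and averaging. The ratio code was tested on simulated counts. Python 3.11.15, numpy 2.4.6, scipy 1.17.1 and pandas 2.3.3 were used.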

Additional observations from a re-analysis of the deposited data

How the results depend on the processing

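With 1 library, counting is the limit: class totals of 97548 to 16412750 UMIs leave members of a few UMIs with wide intervals, and differences between animals cannot be seen. No paired analysis was possible because there is 1 sample. Of 144 counts of members past 2-fold under alternatives, 118 stayed within 1.5 times the reported count. The counts that follow are given without the share over all genes at each setting, so they are not read against it. Thinning cells before summing left fewer members with enough UMIs and gave, as higher and lower in the class named first, 2 and 7 for young against other layer II/III cells, 30 lower for glia against excitatory neurons, 9 higher for upper against deep layers, 1 and 10 for layer V against layer VI, 11 higher for Lhx6 against Adarb2, Prox1 and Sp8 interneurons and 4 higher for the oligodendrocyte lineage against glia. Gating on thinned cells left fewer cells and gave 3 and 3 for the young cells, 6 higher for glia, 9 higher for interneurons against excitatory neurons, 4 higher for upper layers, 2 higher for layer V, 7 and 1 for Lhx6 interneurons and 17 higher for the oligodendrocyte lineage. With 1 UMI as the only filter the counts were 10 higher for newborn against layer II/III neurons, 8 higher for layer V, 12 lower for Lhx6 interneurons, and 24 and 12 for the oligodendrocyte lineage. At least 50 UMIs gave 2 lower for Lhx6 interneurons and 5 higher for the oligodendrocyte lineage. Raising the gate minimums gave 11 higher for Lhx6 interneurons. Leaving out the deepest cells, those above the 90th percentile of UMIs, left 19 of 50 layer V cells and gave 14 lower for layer V. Unthinned, 267 pairs of a member and a class reached 10% of cells, against 102 thinned. Gating on thinned cells moved the Scn3a share of alpha subunit UMIs to 45.1% in layer II/III and 51.6% in interneurons.

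Of 125 named ratios, 76 stayed past 2-fold under every alternative that gave a value, and 36 came within 2-fold under at least 1 alternative with UMIs in both classes, among them Kcnn2 in newborn neurons, Kcnj11 and Kcnn3 in young layer II/III cells, Kcnd3 and Kcnn3 in glia, Cacna1i in the upper layers, Cacna2d3 and Scn1a in layer V and Scn2a in Lhx6 interneurons. Of the 125, 14 were on the other side of 1 under some alternative, 6 of them with UMIs in both classes. These were, with thinning before summing, Kcnu1 in newborn neurons (1.08), Cacna2d2 in young layer II/III cells (1.75) and Cacna1d (1.01) and Cacna1i (1.06) in layer V, and, with gating on thinned cells, Kcnh2 in young cells (0.47) and Cacna1i in the upper layers (0.92). Among the leading 3 of each side the ratio crossed 1 in 7 cases. In each of them a class had 0 UMIs and was set at the floor, so the ratio gives no direction. With thinning before summing, these ratios were 1.62 for Kcnj2 in newborn against layer II/III neurons, 0.54 for Kcnh5 in young against other layer II/III cells, 1.32 for Kcnj2 in interneurons, and 1.23 for Kcna1 and 2.17 for Kcng1 in layer V. With gating on thinned cells Kcnj2 was at 1.55 in interneurons, and without the deepest cells Kcng1 was at 1.16 in layer V.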
